A study of Mus musculus with 24 samples.

Results

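Fc receptors are the cell surface proteins through which blood cells bind antibodies. In all, 10 of their genes were followed here in the blood of young and old mice, 24 h after irradiation with 4 Gy: the receptors for IgG *Fcgr1*, *Fcgr2b*, *Fcgr3* and *Fcgr4*, the shared signalling chain *Fcer1g*, the IgE receptors *Fcer1a* and *Fcer2a*, the B cell members *Fcrl1* and *Fcrla*, and the neonatal Fc receptor *Fcgrt*. They were chosen by name, as the probes whose gene name on the array is one of these 10, of 29742 gene names on it. Each had 1 probe, and all 10 passed the filters that left 17462 genes for testing.

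Activating receptors for IgG (*Fcgr1*, *Fcgr3* and *Fcgr4*) sit, among other cells, on monocytes, macrophages and neutrophils, where they take up and destroy what antibodies have coated. They need the gamma chain that *Fcer1g* encodes, which carries the activation motif. Receptors of NK cells and platelets, given below, signal through this chain too. *Fcgr2b* is the inhibitory receptor for IgG and is made by both B cells and myeloid cells. *Fcer2a* encodes CD23, the low-affinity IgE receptor of mature B cells, *Fcrl1* an Fc receptor-like protein on the B cell surface, and *Fcrla* a related protein inside B cells. *Fcer1a* encodes the IgE-binding chain of the high-affinity receptor of mast cells and basophils, and *Fcgrt* the receptor that returns IgG and albumin to the circulation, best known from endothelium, liver and myeloid cells.

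Each of 24 male C57BL/6J mice gave blood by cardiac puncture, and its RNA, depleted of globin transcripts, was hybridised to 1 single-dye Agilent array. The 4 groups of 6 mice were young unirradiated, young irradiated, old unirradiated and old irradiated; young mice were 2 months and old mice 21 months of age. Irradiated mice received 4 Gy to the whole body from an x-ray source and unirradiated mice a sham exposure, and blood was taken 24 h later. A gene's level is given as the log2 signal of its probe minus the median log2 signal of the array, so that a difference of 1 is a doubling; levels of different probes are not set against each other. DEGs are genes with p below 0.005 and an adjusted p below 0.05 in limma's moderated test, two-sided, adjusted over all genes tested.

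Between 43.9% and 64.4% of the spots on an array were well above background, and the median signal ran from 8.66 to 44.8. The genes that define blood were measured: all 5 red cell markers and 9 or 10 of 10 neutrophil markers were well above background on every array. Several arrays stood apart. Old irradiated replicates 4 and 6 had the lowest median signals and correlated with the other 4 arrays of their group at r = 0.776 to 0.85 across genes, against 0.924 to 0.984 among those 4, and the responses of the members in this group are given with and without them. Some pairs in 1 group were nearly as alike as repeats, at r = 0.99 for young irradiated replicates 2 and 5, 0.994 for old unirradiated replicates 1 and 6 and 0.989 for old irradiated replicates 4 and 6. Hepatocyte markers, which blood should lack, were high in young irradiated replicates 2, 4 and 5 and in old irradiated replicates 2, 3 and 5. All 8 of these markers were also well above background in young unirradiated replicates 3 and 5, with lower means over the list. Slides held mice of 1 age, with both irradiated and unirradiated mice on 1 slide per age, and all young mice were scanned on one day and all old mice on another.

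The 4 receptors for IgG belong to one gene family, and their probes are shown by their first 30 bases. The probe of *Fcgr1* lies at chr3:96086839-96086898 on the minus strand of mm9, that of *Fcgr2b* at chr1:172890988-172891047 (minus), that of *Fcgr3* at chr1:172984129-172984188 (minus) and that of *Fcgr4* at chr1:172959738-172959797 (plus).
Fcgr1: ccacatgtgcagggcatgcagacacagaca
Fcgr2b: acttctgtgagtcctgaaaccaacagacac
Fcgr3: ctacaaaagtaatttctctatcccaaaagc
Fcgr4: ccaagaagcgattcttcagaattttacact
Between any 2 of the 10 probes, each 60 bases long, the longest shared run was 8 bases. The probes were not compared with the transcripts of the other genes. *Fcgr2b* was spotted 10 times on each array and its spots were averaged, and each of the other 9 genes had 1 spot.

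Shown next are promoters of members that moved in opposite directions and hold the same short motif, which occurs in both classes. Those of *Fcer1g* and *Fcer2a*, which moved as well, hold neither of the motifs below and are not shown. The windows are those of RefSeq on GRCm38.p6, 300 bases that run from before to just after the start of the gene, written in the direction of transcription. Capitals mark GAGGAA, the core that the myeloid and B cell factor SPI1 (PU.1) binds, on either strand (TTCCTC on the other), and, in *Fcgr3*, CCCAAGGG, a match to CCCNNGGG, the core of the B cell factor EBF1.
Fcgr1, chr3:96293920-96294219, minus strand: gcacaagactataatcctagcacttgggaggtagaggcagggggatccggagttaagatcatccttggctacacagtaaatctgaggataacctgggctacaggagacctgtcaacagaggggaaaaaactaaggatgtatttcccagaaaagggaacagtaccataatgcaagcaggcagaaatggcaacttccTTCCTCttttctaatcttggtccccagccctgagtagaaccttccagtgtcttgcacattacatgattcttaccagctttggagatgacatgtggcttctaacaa
Fcgr3, chr1:171059354-171059653, minus strand: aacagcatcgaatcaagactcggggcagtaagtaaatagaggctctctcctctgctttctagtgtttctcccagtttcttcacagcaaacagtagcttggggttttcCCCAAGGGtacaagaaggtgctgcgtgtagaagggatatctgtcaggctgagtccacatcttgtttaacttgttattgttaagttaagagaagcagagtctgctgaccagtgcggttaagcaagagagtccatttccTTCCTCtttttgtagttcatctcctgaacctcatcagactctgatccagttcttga
Fcgr4, chr1:171018676-171018975, plus strand: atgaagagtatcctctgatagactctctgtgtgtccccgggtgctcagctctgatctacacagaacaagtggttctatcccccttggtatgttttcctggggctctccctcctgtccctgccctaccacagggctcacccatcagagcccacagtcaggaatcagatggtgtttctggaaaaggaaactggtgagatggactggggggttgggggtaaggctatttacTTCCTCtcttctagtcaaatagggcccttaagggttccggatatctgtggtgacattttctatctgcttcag
Fcrl1, chr3:87376137-87376436, plus strand: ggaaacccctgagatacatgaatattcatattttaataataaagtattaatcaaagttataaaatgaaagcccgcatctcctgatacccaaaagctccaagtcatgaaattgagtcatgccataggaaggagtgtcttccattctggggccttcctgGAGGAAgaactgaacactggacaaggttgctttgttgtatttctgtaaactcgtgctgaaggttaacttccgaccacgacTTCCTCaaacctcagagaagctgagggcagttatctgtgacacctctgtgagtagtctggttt
Fcrla, chr1:170927534-170927833, minus strand: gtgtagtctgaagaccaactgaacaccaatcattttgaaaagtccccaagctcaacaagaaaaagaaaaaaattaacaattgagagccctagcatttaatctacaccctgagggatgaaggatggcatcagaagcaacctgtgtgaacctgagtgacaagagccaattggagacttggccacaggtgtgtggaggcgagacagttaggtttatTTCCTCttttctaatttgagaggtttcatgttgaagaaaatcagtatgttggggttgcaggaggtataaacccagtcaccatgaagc
GAGGAA was found in the windows of 6 of the 10 genes: 3 of the 4 myeloid members, 2 of the 3 B cell members and *Fcer1a*. Of all 32851 promoter windows of the same length, 28.3% held it. CCCNNGGG was found in the windows of *Fcgr3* and *Fcgrt* only, against 13.7% of all windows. The matches of *Fcgr1* and *Fcrla* lie in a run of 15 bases that both windows share, TTCCTCTTTTCTAAT, which 3 of all windows hold. *Fcgr1* and *Fcgr3* share TTCCTTCCTCTTTT, a run of 14 bases found in 5 windows. These matches describe the letters of the windows only.

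**Figure D1:**
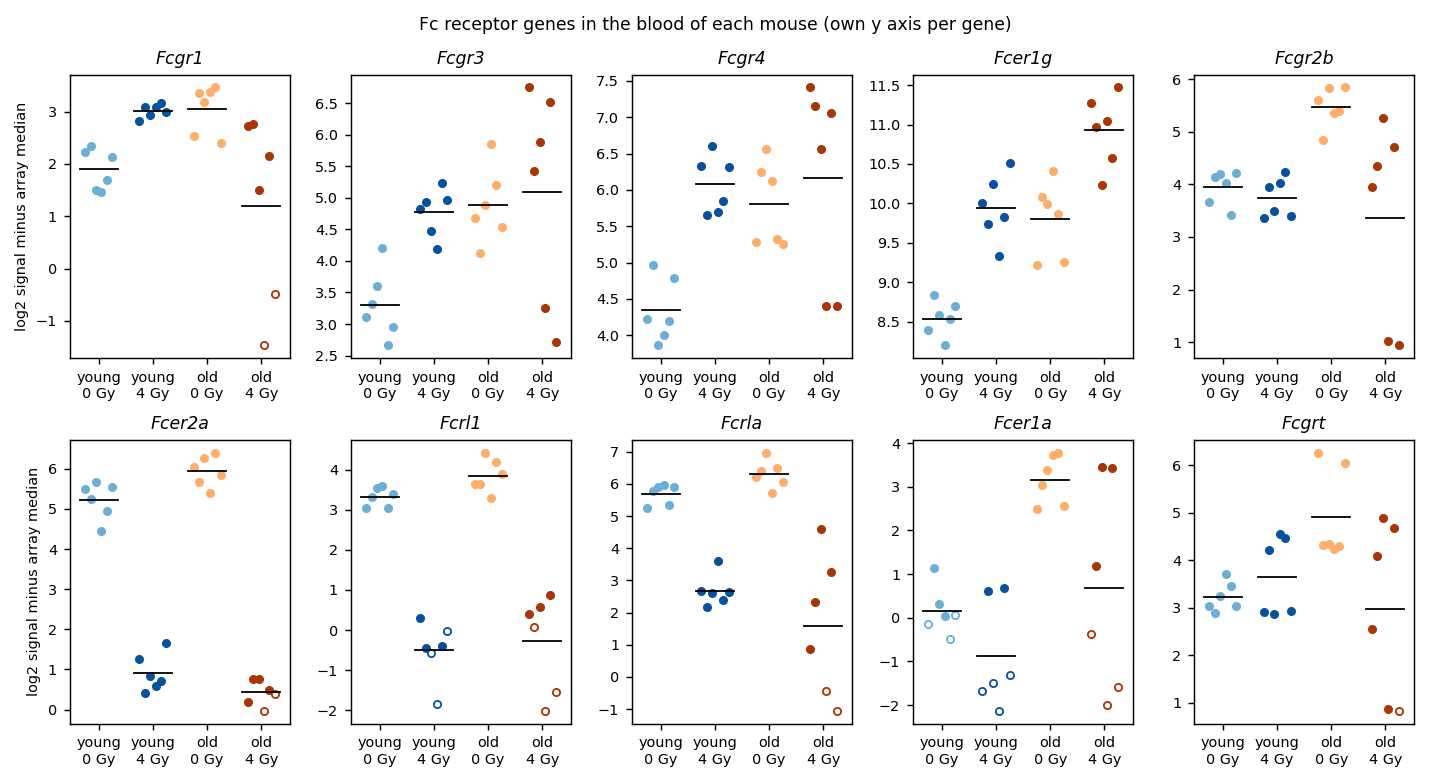
Level of each of the 10 Fc receptor genes in every mouse (log2 signal minus the median of the array), with 1 panel per gene, 1 point per mouse (open where the probe was not well above background) and a line at the mean of each group of 6. *Fcer2a*, *Fcrl1* and *Fcrla* of irradiated mice lie below all unirradiated mice of the same age, and old irradiated replicates 4 and 6 are the lowest of their group for *Fcgr1*, *Fcgr2b*, *Fcrla* and *Fcgrt*.

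In young mice, irradiation moved the myeloid and the B cell members apart. All 4 myeloid members were upregulated, by 2.17 to 3.32 fold, and all 3 B cell members were downregulated, by 8.02 to 19.9 fold. *Fcgr2b*, *Fcer1a* and *Fcgrt* were not DEGs. That made 7 of 10 members DEGs, where 35.8% of all genes tested were; 14.4% of all genes were upregulated and 21.4% downregulated. Over all genes the median log2 change was -0.20.

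*Fcgr4*, the receptor for IgG2a and IgG2b on monocytes and neutrophils, had levels of 3.86 to 4.97 (median 4.21) in young unirradiated mice and 5.66 to 6.61 (median 6.08) in young irradiated mice. The groups did not overlap, and the log2 change was 1.73 (SE 0.24, adjusted p = 1e-04). *Fcer1g* ran from 8.20 to 8.84 (median 8.56) without irradiation and from 9.33 to 10.51 (median 9.92) with it, again without overlap, a log2 change of 1.40 (SE 0.20, adjusted p = 0.000125). *Fcgr1*, the high-affinity receptor for IgG, went from 1.47 to 2.35 (median 1.91) in unirradiated mice to 2.82 to 3.17 (median 3.04) in irradiated mice, with no overlap and a log2 change of 1.12 (SE 0.18, adjusted p = 0.000279). The 6 irradiated mice were close together for this gene. *Fcgr3*, the low-affinity activating receptor, ran from 2.66 to 4.20 (median 3.22) and from 4.19 to 5.24 (median 4.87), and its log2 change was 1.46 (SE 0.26, adjusted p = 0.000571). Here the lowest irradiated mouse reached the highest unirradiated one.

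The B cell members fell in every irradiated young mouse below every unirradiated one. *Fcer2a* had levels of 4.45 to 5.67 (median 5.37) in unirradiated and 0.42 to 1.67 (median 0.76) in irradiated mice, a log2 change of -4.32 (SE 0.26, adjusted p = 4.77e-07). *Fcrl1* ran from 3.04 to 3.58 (median 3.36) and from -1.84 to 0.29 (median -0.41), a log2 change of -3.82 (SE 0.29, adjusted p = 1.95e-06); its probe was well above background in only 3 of the 6 irradiated mice. *Fcrla* ran from 5.24 to 5.96 (median 5.84) and from 2.19 to 3.61 (median 2.62), a log2 change of -3.0 (SE 0.23, adjusted p = 1.96e-06). *Fcer2a* and *Fcrla* remained well above background in all 6 irradiated mice. Groups did not overlap for 6 of the 10 members, against 25.0% of all genes. With normexp background correction *Fcgr1* and *Fcgr3* were no longer DEGs (adjusted p = 0.0653 and 0.0824), and *Fcer2a* and *Fcrl1* fell by 2.46 and 1.57 on the log2 scale. In 1 fit of all 24 arrays the same 2 receptors for IgG were not DEGs (adjusted p = 0.103 and 0.0381).

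Markers of the cells moved with both classes. All 10 B cell markers were downregulated in young mice, with a median log2 change of -2.40; those of *Ms4a1* and *Cd79a* were -2.13 and -2.83. The mean of the B cell list, as the difference of each gene from its median in young unirradiated mice, lay between -2.93 and -1.86 in irradiated and between -0.21 and 0.24 in unirradiated mice. On the myeloid side, 4 of 10 neutrophil and 3 of 8 monocyte markers were upregulated (*S100a8* by 1.67 on the log2 scale) and 1 monocyte marker, *Cx3cr1*, was downregulated by 1.14. The list means were -0.39 to 0.48 in unirradiated and 0.36 to 1.33 in irradiated mice for neutrophils, and -0.32 to 0.41 and 0.74 to 1.15 for monocytes. Tissue macrophage markers, of cells that also carry these receptors, reached list means of 2.84 to 5.19 in irradiated mice against -1.19 to 2.39, and 8 of 9 tested were upregulated (*Marco* by 5.65). Of 7 NK cell markers, 3 were upregulated, where 14.4% of all genes were, with a median log2 change of 0.69. Their list means were -0.05 to 1.90 in irradiated and -0.57 to 0.62 in unirradiated mice. In bulk blood, a change in the number of cells of a type and a change in RNA per cell cannot be told apart. The part of all these cells in the results was not tested.

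For the other 3 members, *Fcgr2b* had levels of 3.42 to 4.21 (median 4.08) in unirradiated and 3.37 to 4.23 (median 3.72) in irradiated young mice, nearly the same range, with a log2 change of -0.20 (SE 0.20, adjusted p = 0.462). *Fcer1a* was close to background, well above it in 3 of 6 unirradiated and 2 of 6 irradiated mice, with a log2 change of -1.05 (SE 0.49, adjusted p = 0.0956). *Fcgrt* had a log2 change of 0.42 (SE 0.33, adjusted p = 0.327). On the single slide that held both groups, with 2 mice each, the differences were 1.04 for *Fcgr1*, 2.06 for *Fcgr3*, 1.5 for *Fcgr4* and 1.26 for *Fcer1g*, and -4.42 for *Fcer2a*, -3.29 for *Fcrl1* and -3.19 for *Fcrla*. With the slide as a fixed block, which leaves only these 4 mice to carry the difference, *Fcgr1*, *Fcgr4* and *Fcer1g* were no longer DEGs (adjusted p = 0.0675, 0.0505 and 0.0514).

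**Figure D2:**
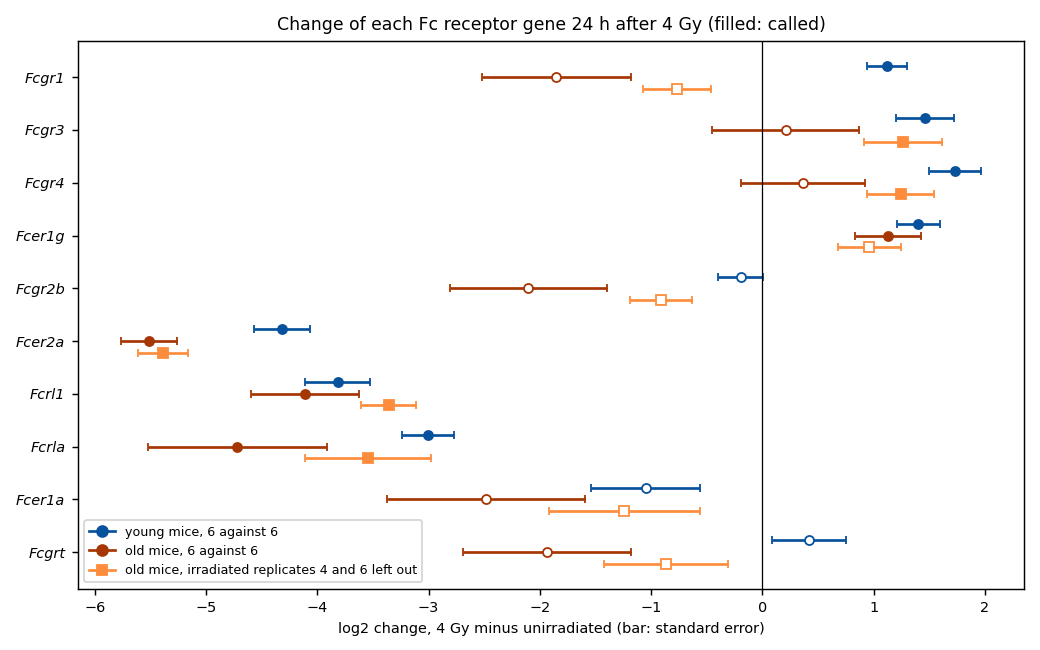
Log2 change of each Fc receptor gene after 4 Gy in young mice and in old mice (6 irradiated against 6 unirradiated), and in old mice without irradiated replicates 4 and 6; bars are standard errors from limma and filled markers are DEGs. *Fcer2a*, *Fcrl1* and *Fcrla* lie between -5.51 and -3.0 in both ages, whereas *Fcgr1* lies at 1.12 in young and -1.85 in old mice.

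In old mice, the B cell members again fell, while of the myeloid members *Fcer1g* alone was upregulated. *Fcer2a*, *Fcrl1* and *Fcrla* were 45.6, 17.3 and 26.3 fold lower, and *Fcer1g* was 2.18 fold higher. Thus 4 of 10 members were DEGs, 1 up and 3 down, where 25.0% of all genes were DEGs, 7.60% up and 17.4% down. The B cell members were also the 3 whose groups did not overlap, which held for 22.7% of all genes. Over all genes the median log2 change was -0.25. Among all DEGs, 30.4% were upregulated with this scaling and 36.9% to 71.8% with the other scalings, but the same 4 members were DEGs in the same directions under all 5 of them.

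*Fcer2a* had levels of 5.40 to 6.40 (median 5.95) in old unirradiated mice and -0.03 to 0.77 (median 0.44) in old irradiated mice, a log2 change of -5.51 (SE 0.25, adjusted p = 1.11e-07), and no gene of this comparison had a lower adjusted p. *Fcrl1* ran from 3.30 to 4.42 (median 3.76) and from -2.01 to 0.87 (median 0.25), a log2 change of -4.11 (SE 0.48, adjusted p = 0.000222). *Fcrla* ran from 5.73 to 6.97 (median 6.31) and from -1.05 to 4.59 (median 1.60), a log2 change of -4.72 (SE 0.81, adjusted p = 0.00136). The irradiated mice were thus tight for *Fcer2a* and widely spread for *Fcrla*. Well above background were 4 of the 6 irradiated mice for *Fcer2a*, 3 for *Fcrl1* and 4 for *Fcrla*, so that the size of each fold rests in part on signals near background. With normexp background correction the log2 changes were -2.77, -1.31 and -2.34, and *Fcer2a* was the only DEG among the 10 members; *Fcrl1*, *Fcrla* and *Fcer1g* were not (adjusted p = 0.108, 0.083 and 0.154), where 4 genes in all were upregulated and 4 downregulated. Of 10 B cell markers 9 were downregulated, with a median log2 change of -3.84 and list means between -3.94 and -1.37 in irradiated against 0.15 to 1.06 in unirradiated mice.

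*Fcer1g* ran from 9.22 to 10.41 (median 9.93) in old unirradiated and from 10.23 to 11.47 (median 11) in old irradiated mice, a small overlap, and its log2 change was 1.13 (SE 0.30, adjusted p = 0.0109). It was no longer a DEG when old unirradiated replicate 1 or 6 or old irradiated replicate 1 was left out, or when the very alike arrays of a group were averaged (0.95, adjusted p = 0.0491), an alternative chosen after the data were seen. The receptors for IgG, by contrast, spread widely in the irradiated group. *Fcgr1* had levels of 2.72, 2.76, 1.51, -1.47, 2.15 and -0.48 in old irradiated replicates 1 to 6, against 2.40 to 3.46 (median 3.28) in old unirradiated mice, a log2 change of -1.85 (SE 0.67, adjusted p = 0.0455), not a DEG because its unadjusted p was above the threshold. *Fcgr3* had levels of 2.71 to 6.75 (median 5.65) against 4.13 to 5.85 (median 4.78), and *Fcgr4* had 4.4 to 7.41 (median 6.81) against 5.26 to 6.56 (median 5.72). Their log2 changes were 0.21 (SE 0.66, adjusted p = 0.822) and 0.36 (SE 0.56, adjusted p = 0.633). *Fcgr2b* had levels of 0.94 to 5.26 (median 4.15) against 4.84 to 5.84 (median 5.50), with a log2 change of -2.10 (SE 0.71, adjusted p = 0.0337), past the adjusted threshold but not the unadjusted one.

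The low values came from the same pair of mice. Old irradiated replicates 4 and 6 had levels of 3.26 and 2.71 for *Fcgr3*, 4.41 and 4.4 for *Fcgr4*, 1.02 and 0.94 for *Fcgr2b* and -1.47 and -0.48 for *Fcgr1*, each below the other 4 mice of the group. For *Fcer1g* they had 11.05 and 11.47, among the higher values. Monocyte markers were low in the same 2 mice, with list means of -1.57 and -1.50 against 0.92 to 1.23 in the other 4, and their neutrophil list means were below those of the other 4, which ran from 1.73 to 3.54. Red cell markers went the other way, with list means of 1.87 and 1.89 against -2.13 to -1.11. Platelet list means were also highest in these 2 mice, at 3.37 and 3.20 against 2.31 to 3.09 in the other 4. The part of these cells in the levels was not tested. Without old irradiated replicates 4 and 6, an alternative chosen after the data were seen, *Fcgr3* and *Fcgr4* were upregulated. Their log2 changes were 1.26 (SE 0.35, adjusted p = 0.0118) and 1.24 (SE 0.30, adjusted p = 0.00622). Of all genes, 11.9% were then upregulated and 22.8% downregulated. *Fcer1g* was no longer a DEG at 0.96 (SE 0.29, adjusted p = 0.0166), its unadjusted p being above the threshold. *Fcgr1* then had a log2 change of -0.77 (SE 0.31, adjusted p = 0.0588) and *Fcgr2b* of -0.91 (SE 0.28, adjusted p = 0.0192). The B cell members stayed DEGs without these replicates, at -5.39, -3.36 and -3.55 for *Fcer2a*, *Fcrl1* and *Fcrla*. Of 8 monocyte markers, none was upregulated and 4 were downregulated in old mice with all arrays. Without the 2 replicates, 2 were upregulated and 4 downregulated, with a median log2 change of -0.53. Of 10 neutrophil markers, none was a DEG with all arrays and 1 was upregulated without the 2 replicates.

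Leaving out instead old irradiated replicates 2, 3 and 5, the mice with high hepatocyte markers, made 8 of 10 members DEGs. Over all 17462 genes, 2794 were then upregulated and 4273 downregulated. The irradiated arrays left were replicates 1, 4 and 6. Replicates 4 and 6 were nearly as alike as repeats, so the spread within the group may be understated. *Fcgr1* and *Fcgr2b* then fell by 2.79 and 3.50 on the log2 scale, and the log2 changes of *Fcgr3* and *Fcgr4* were -0.64 and -0.39, not DEGs. The sign of *Fcgr3* and *Fcgr4* in old mice thus changed with the mice that were counted. On the slide that held both groups of old mice, with 2 mice each, the differences were -0.19 for *Fcgr1*, 1.22 for *Fcgr3*, 1.98 for *Fcgr4*, 1.56 for *Fcer1g* and -1.47 for *Fcgr2b*, and -5.65, -3.79 and -4.68 for *Fcer2a*, *Fcrl1* and *Fcrla*. With the slide as a fixed block, *Fcer1g* and *Fcrla* were no longer DEGs (adjusted p = 0.136 and 0.123).

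Set against each other mouse by mouse, the B cell means separated irradiated from unirradiated blood in both ages, and the myeloid means in young mice only. The members were chosen with results of these data known, so the separation is a description. Each member's level was taken as the difference from its median in young unirradiated mice, and these were averaged over the 4 myeloid members (*Fcgr1*, *Fcgr3*, *Fcgr4*, *Fcer1g*) and over the 3 B cell members (*Fcer2a*, *Fcrl1*, *Fcrla*). These means carry no test. In old irradiated replicates 4 and 6, *Fcer1g* was high (11.05 and 11.47) while the other myeloid members were low, so the myeloid mean blends both. The myeloid mean was 0.05 ± 0.21 in young unirradiated, 1.48 ± 0.22 in young irradiated, 1.41 ± 0.42 in old unirradiated and 1.37 ± 1.15 in old irradiated mice (SD, n = 6 each). The B cell mean was -0.11 ± 0.22, -3.82 ± 0.31, 0.51 ± 0.38 and -4.27 ± 1.17 in the same order. In the other 4 mice, without old irradiated replicates 4 and 6, those of that group were 2.08 ± 0.41 and -3.59 ± 0.64 (SD, n = 4). The myeloid mean of old unirradiated mice moved with the scale of the arrays, to 0.769 to 0.852 under the 5 other scalings, where that of young irradiated mice was 1.43 to 1.47.

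The myeloid minus the B cell mean was 0.16 ± 0.24 (SD, n = 6) in young unirradiated mice, with a range of -0.26 to 0.47, and 5.30 ± 0.23 in young irradiated mice, with a range of 4.97 to 5.51. In old mice it was 0.90 ± 0.59 without irradiation, from 0.48 to 2.01, and 5.64 ± 0.80 with it, from 4.45 to 6.93. It was 5.67 ± 1.03 (SD, n = 4) without old irradiated replicates 4 and 6. The lowest irradiated mouse of either age, at 4.45, lay above the highest unirradiated one, at 2.01. In old mice the myeloid means alone overlapped, at -0.16 to 2.56 with irradiation and 0.89 to 1.96 without it, and the B cell means did not. Scaling an array by another factor moves both of its means alike, so the order of the mice in this difference does not rest on the scale.

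**Figure D3:**
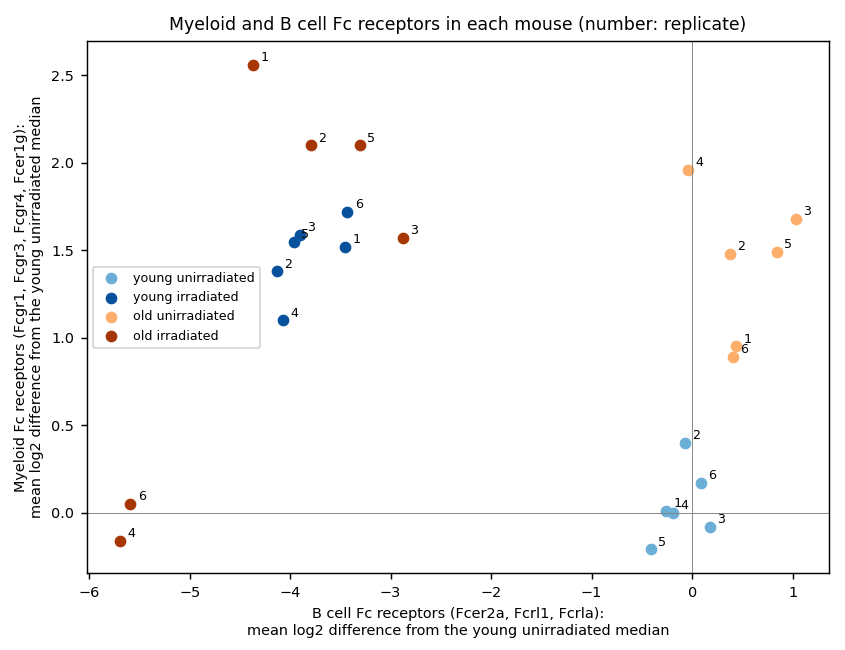
Mean of the 4 myeloid members against the mean of the 3 B cell members in each of the 24 mice, both as log2 difference from the median of young unirradiated mice. Unirradiated mice have B cell means between -0.41 and 1.03 and irradiated mice between -5.69 and -2.88, while the myeloid means of old irradiated mice run from -0.16 to 2.56.

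Whether the response to radiation differed between the ages was tested as the interaction over all 24 arrays. With all arrays no member passed, and 0% of all genes did: limma called 0 genes, with 4111 at an unadjusted p below 0.05, while the random variance test called 0. With the slide as a random block, limma called 9 genes with a higher and 23 with a lower response in old mice, and without old irradiated replicate 3 it called 257 and 778. Of the members, *Fcgr1* had the lowest adjusted p, with an interaction of -2.97 on the log2 scale (SE 0.72, adjusted p = 0.106). *Fcer2a* was next, at -1.19 (SE 0.35, adjusted p = 0.118). For *Fcgrt* and *Fcgr2b* the interactions were -2.35 (SE 0.87, adjusted p = 0.142) and -1.91 (SE 0.77, adjusted p = 0.159), and for *Fcrl1* -0.30 (SE 0.58, adjusted p = 0.751). The test turned on which old irradiated mice were counted. Without old irradiated replicates 2, 3 and 5, the mice with high hepatocyte markers, 7 of 10 members passed, all with a lower response in old mice, among 2689 genes with a higher and 3272 with a lower one; *Fcgr1* was at -3.91, *Fcgrt* at -3.92, *Fcrla* at -3.52 and *Fcgr2b* at -3.31. Without old irradiated replicates 4 and 6, *Fcgr1* alone of the members passed, at -1.89 (SE 0.35, adjusted p = 0.0269). Over all genes, 8 then had a higher and 18 a lower response in old mice. *Fcer2a*, *Fcgrt* and *Fcgr2b* were at -1.07, -1.28 and -0.71 in that setting. Without old irradiated replicate 3, *Fcgr1* (adjusted p = 0.0396) and *Fcer2a* (adjusted p = 0.0472) passed.

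Between the ages without irradiation, 7 of the 10 members were higher in old mice and none was lower: the 4 myeloid members, *Fcgr2b*, *Fcer1a* and *Fcgrt*. Those counts have to be read against a shift of nearly the whole array, since 63.8% of all genes were DEGs, 48.3% higher and 15.5% lower, with a median log2 difference of 0.63 over all genes. The split between higher and lower depends on the scaling: 75.6% of DEGs were higher in old mice here and 7.71% to 42.5% under the 5 other scalings, where 2 or 3 members were DEGs. *Fcer1a* and *Fcgr2b* were DEGs under all of these scalings, and the 7 members had a positive difference under each. All young mice were scanned on one day and all old mice on another, so that scan day and age cannot be told apart.

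*Fcer1a* differed most. Its levels were -0.48 to 1.15 (median 0.06) in young and 2.50 to 3.78 (median 3.21) in old unirradiated mice, without overlap, and well above background in 3 of 6 young and all 6 old mice. The log2 difference was 3.0 (SE 0.29, adjusted p = 3.92e-06), an 8.02 fold higher signal and 2.38 above the median of all genes, measured against a young group near background. With normexp background correction the difference was 0.92 (adjusted p = 0.268), and 0 genes in all were DEGs, with 956 at an unadjusted p below 0.05. *Fcgr2b*, with levels of 3.42 to 4.21 in young and 4.84 to 5.84 in old mice, had a log2 difference of 1.53 (SE 0.20, adjusted p = 3.08e-05), 0.91 above the median. The myeloid members differed by 1.16 for *Fcgr1*, 1.57 for *Fcgr3*, 1.46 for *Fcgr4* and 1.26 for *Fcer1g*, which is 0.53 to 0.95 above the median of all genes. *Fcgrt* differed by 1.68 (SE 0.37, adjusted p = 0.00105).

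The B cell members moved with the array as a whole. *Fcer2a*, *Fcrl1* and *Fcrla* had log2 differences of 0.71, 0.52 and 0.63 between old and young unirradiated mice, none a DEG, which is 0.09, -0.10 and 0.0019 relative to the median of all genes. Groups did not overlap for 6 members (*Fcgr1*, *Fcgr4*, *Fcer1g*, *Fcgr2b*, *Fcer1a* and *Fcgrt*), against 48.6% of all genes. Neutrophil markers were higher in old mice for 8 of 10 genes, with list means of 1.10 to 2.85 against -0.39 to 0.48 in young mice. Monocyte markers were higher for 5 of 8, with 0.78 to 1.55 against -0.32 to 0.41. B cell markers were higher for 6 of 10, with 0.15 to 1.06 against -0.21 to 0.24. Of all genes, 48.3% were higher. The median log2 differences of the 3 lists were 1.75, 0.999 and 0.666 in the same order, against 0.63 for all genes. The list means carry this shift of the whole array too. The part of these cells in the difference between the ages was not tested.

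After irradiation, no member differed between old and young mice by limma's test, and 2.00% of all genes did, 1.40% higher and 0.601% lower; 3736 genes had an unadjusted p below 0.05. The random variance test called 0 members, and limma with the slide as a random block called 1, *Fcer1g*. *Fcer1g* had a log2 difference of 0.98 (SE 0.29, adjusted p = 0.0895) and *Fcgr1* of -1.81 (SE 0.65, adjusted p = 0.136). *Fcgr1* was the single member without overlap, with -1.47 to 2.76 in old and 2.82 to 3.17 in young irradiated mice, against 5.07% of all genes. By medians, *Fcgr1* was lowest in old irradiated mice (1.83) and young unirradiated mice (1.91), whose ranges overlapped, and highest in young irradiated (3.04) and old unirradiated mice (3.28), whose ranges overlapped too. *Fcgr3* and *Fcgr4* had log2 differences of 0.32 (SE 0.65) and 0.09 (SE 0.54) with all mice, and were 1.37 (SE 0.30, adjusted p = 0.00524) and 0.97 (SE 0.25, adjusted p = 0.0117) higher in old irradiated mice, as DEGs, without replicates 4 and 6. In that setting 3542 of 17462 genes were higher and 1436 lower, with a median log2 difference of 0.34 over all genes. Without replicates 2, 3 and 5 *Fcgr3* and *Fcgr4* were at -0.53 and -0.67, not DEGs, and 4 other members were DEGs: *Fcer1g* higher at 1.32, and *Fcgr1*, *Fcgrt* and *Fcrla* lower at -2.76, -2.23 and -2.89. Over all genes, 1315 were then higher and 539 lower. In 1 fit of all 24 arrays, *Fcer1g* (adjusted p = 0.00917) and *Fcgr1* (adjusted p = 0.018) were DEGs.

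*Fcgrt* followed neither class. In young irradiated replicates 2, 4 and 5 its levels were 4.21, 4.55 and 4.46, against 2.86 to 2.92 in the other 3 and 2.88 to 3.71 in young unirradiated mice. The same 3 mice had hepatocyte list means of 7.53, 8.71 and 7.69, against -0.97 to -0.24 in the other 3, with all 8 hepatocyte markers well above background in the former and 3 or 4 in the latter. Young unirradiated mice had hepatocyte list means of -2 to 4.65. The highest of these, in replicate 5, went with an *Fcgrt* level of 3.46. In old irradiated replicates 2, 3 and 5, *Fcgrt* levels of 4.08, 4.89 and 4.67 went with hepatocyte list means of 7.16, 7.53 and 7.82. Replicate 1 of that group had 2.56 and a list mean of -1.21, and replicates 4 and 6 had 0.86 and 0.83 with list means of 1.22 and 1.09.

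In old unirradiated mice, however, hepatocyte list means were -2.74 to -1.93, with 1 to 3 of 8 markers well above background, and *Fcgrt* was 6.26 and 6.05 in replicates 1 and 6 against 4.23 to 4.33 in the other 4. Those 2 replicates are the pair that was nearly as alike as repeats. Without young irradiated replicates 2, 4 and 5, an alternative chosen after the data were seen, the log2 change of *Fcgrt* in young mice was -0.33 (SE 0.19, adjusted p = 0.181) in place of 0.42, and *Fcer1a* was downregulated at -1.66 (SE 0.30, adjusted p = 0.00152). In old mice *Fcgrt* had a log2 change of -1.93 (SE 0.75, adjusted p = 0.0611) with all mice and of -0.86 (SE 0.56, adjusted p = 0.221) without old irradiated replicates 4 and 6. The part of liver RNA in the levels of *Fcgrt* was not tested.

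**Figure D4:**
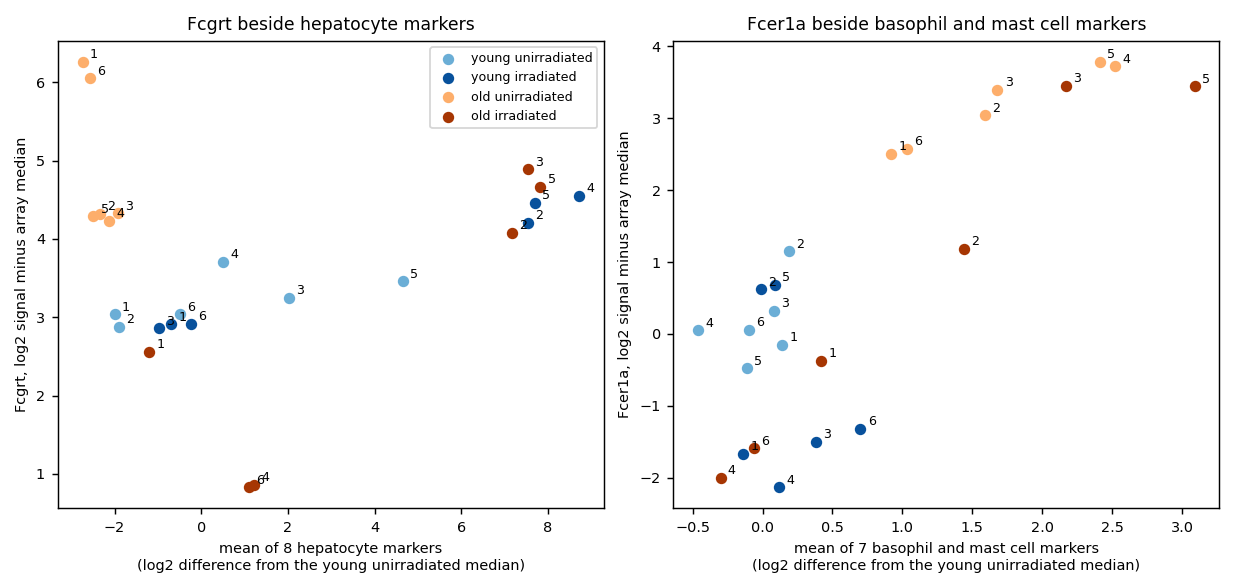
Level of *Fcgrt* against the mean of 8 hepatocyte markers, and level of *Fcer1a* against the mean of 7 basophil and mast cell markers, with 1 point per mouse in 4 groups (log2; markers as difference from the median of young unirradiated mice). Old unirradiated replicates 1 and 6 have *Fcgrt* levels of 6.26 and 6.05 at hepatocyte means of -2.74 and -2.56, apart from the 3 young and 3 old irradiated mice with hepatocyte means of 7.16 to 8.71.

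*Fcer1a* was likewise uneven among old irradiated mice. Its levels were -0.37, 1.18, 3.45, -2, 3.44 and -1.59 in replicates 1 to 6, against 2.50 to 3.78 in old unirradiated mice, and the log2 change was -2.48 (SE 0.89, adjusted p = 0.0441), not a DEG by its unadjusted p; without replicates 4 and 6 it was -1.24 (SE 0.68, adjusted p = 0.152). Of the 6 irradiated mice, 3 had it well above background. Means of the 7 basophil and mast cell markers were 2.17 and 3.09 in replicates 3 and 5, where *Fcer1a* was high, and -0.30 and -0.06 in replicates 4 and 6, where it was lowest. *Mcpt8*, a basophil protease, was 3.44 higher in old than in young unirradiated mice on the log2 scale (SE 0.62, adjusted p = 0.000285) and fell by 2.25 after irradiation in young mice. *Cpa3*, a mast cell protease of the same list, rose in irradiated young mice by 2.10. Of the 5 tested markers, 3 were upregulated and 1 downregulated there, with a median log2 change of 1.59. Of all genes, 14.4% and 21.4% were. List means in young irradiated mice were -0.14 to 0.70, and replicate 6, the highest, had an *Fcer1a* level of -1.32. Between unirradiated ages, 4 of the 5 were higher in old mice, as were 48.3% of all genes. The part of basophils in the levels of *Fcer1a* was not tested.

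The genes around the Fc receptors were followed by lists of their roles. Among other Fc receptors, 5 of 9 were tested. *Fcmr*, the IgM receptor of B cells, had levels of 8.59 to 8.77 in young unirradiated and 4.93 to 6.02 in young irradiated mice, and fell by 3.14 (SE 0.19, adjusted p = 4.77e-07) in young and by 4.38 (SE 0.58, adjusted p = 0.000377) in old mice on the log2 scale. *Fcrls* rose by 1.96 in young (SE 0.40, adjusted p = 0.00152) and 2.23 in old mice (SE 0.47, adjusted p = 0.00375). *Pigr*, *Fcrlb* and *Fcrl5* were not DEGs after irradiation in either age. Without old irradiated replicates 4 and 6, where 34.7% of all genes were DEGs, *Fcmr* fell by 3.56 and *Fcrls* rose by 2.35 in old mice, and *Pigr* was a DEG at 0.91.

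Of 9 other receptors that signal through the gamma chain of *Fcer1g*, 5 were upregulated in irradiated young mice and none was downregulated, with a median log2 change of 1.61. They were the C-type lectins *Clec4e* (1.92) and *Clec4d* (2.09), the platelet collagen receptor *Gp6* (1.89) and the NK cell receptors *Ncr1* (1.75) and *Klrb1c* (1.61). In old mice 2 of 9 were upregulated, *Gp6* (2.00) and *Oscar* (0.91), with a median of 0.49. Without old irradiated replicates 4 and 6 the DEGs in old mice were *Gp6* (1.73), *Clec4d* (2.01) and *Ncr1* (2.42), with a median of 1.15 over the 9. *Clec4e* had levels of 2.54 to 3.27 and 4.22 to 5.22 in young unirradiated and irradiated mice, and of 4.52 to 6.72 and 3.86 to 7.68 in old mice. Platelet markers were upregulated for 7 of 7 genes in both ages, with median log2 changes of 1.78 and 1.88.

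Other activating adaptors split by cell type. *Tyrobp* of myeloid and NK cells rose by 1.05 in young mice (SE 0.14, adjusted p = 8.3e-05), while *Cd79a* and *Cd79b* of the B cell receptor fell by 2.83 and 2.68 and *Cd3e* and *Cd3g* of the T cell receptor by 1.13 and 1.12. *Hcst* and *Cd247* were not DEGs. In old mice, *Cd79a* and *Cd79b* both fell by 4.13 and the other 5 were not DEGs, with *Tyrobp* at 0.08 (SE 0.55, adjusted p = 0.927). Leaving out old irradiated replicates 4 and 6, *Cd79a* and *Cd79b* fell by 3.23 and 3.19 and *Tyrobp* was at 0.93 (SE 0.32, adjusted p = 0.0295), not a DEG by its unadjusted p.

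Signalling genes below the receptors moved both ways. Of 20 activating genes, 5 were DEGs in irradiated young mice, where 35.8% of all genes were: 2 were upregulated, the kinase *Lyn* (1.03) and the adaptor *Lcp2* (1.25), and 3 were downregulated, the phospholipases *Plcg1* (-0.90) and *Plcg2* (-0.50) and the kinase *Tec* (-0.91). Their median log2 change was 0.03, against -0.20 for all genes. *Syk*, the kinase that binds the gamma chain, had a log2 change of 0.0059 (SE 0.14, adjusted p = 0.977) in young and -0.54 (SE 0.41, adjusted p = 0.317) in old mice. In old mice, where 25.0% of all genes were DEGs, 2 were downregulated, *Lat2* (-2.11) and *Plcg2* (-1.22), and none was upregulated. When old irradiated replicates 4 and 6 were left out, *Lyn* (0.98), *Lcp2* (1.19) and *Vav3* (0.86) were upregulated in old mice, and *Lat2* (-1.12) and *Plcg2* (-0.70) downregulated. Between the ages without irradiation, 17 of 20 were higher in old mice, where 48.3% of all genes were, with a median of 0.89 against 0.63 for all genes; the split between higher and lower over all genes turned with the scaling, as given above.

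Among 15 tested genes of inhibitory signalling, 5 were upregulated and 6 downregulated in irradiated young mice, with a median of -0.24. The phosphatases *Inpp5d* (0.60), which *Fcgr2b* recruits, *Inppl1* (0.81) and *Ptpn11* (1.69) rose, as did the adaptor *Dok2* (1.28) and the myeloid receptor *Lilrb4a* (1.26). The phosphatase *Ptpn6* (-0.81), *Dok3* (-0.65), *Cblb* (-1.01), *Csk* (-0.64) and the B cell receptors *Cd22* (-2.33) and *Cd72* (-2.54) fell. In old mice *Ptpn11* rose (1.27), and *Cblb* (-1.05), *Cd22* (-2.53) and *Cd72* (-2.86) fell; the same 4 were the DEGs without old irradiated replicates 4 and 6. Of the same 15, 12 were higher and 1, *Cbl* (-2.23), was lower in old than in young unirradiated mice, on the scale on which 48.3% of all genes were higher and 15.5% lower.

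Of the partners of single receptors, *Cr2*, the complement receptor that CD23 binds, fell by 2.64 in young and 3.74 in old mice. *Adam10*, the protease that releases CD23 from the cell, rose by 0.73 and 1.08. *B2m*, the light chain of the neonatal receptor, rose by 1.13 in young mice (SE 0.20, adjusted p = 0.000595) and had a log2 change of 0.63 in old mice (SE 0.22, adjusted p = 0.0434), which was not a DEG. With old irradiated replicates 4 and 6 left out, *Cr2* fell by 4.40, *Adam10* rose by 0.96 and *B2m* was at 0.59, not a DEG. *Alb*, whose protein the neonatal receptor carries, was left out by the filters.

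**Figure D5:**
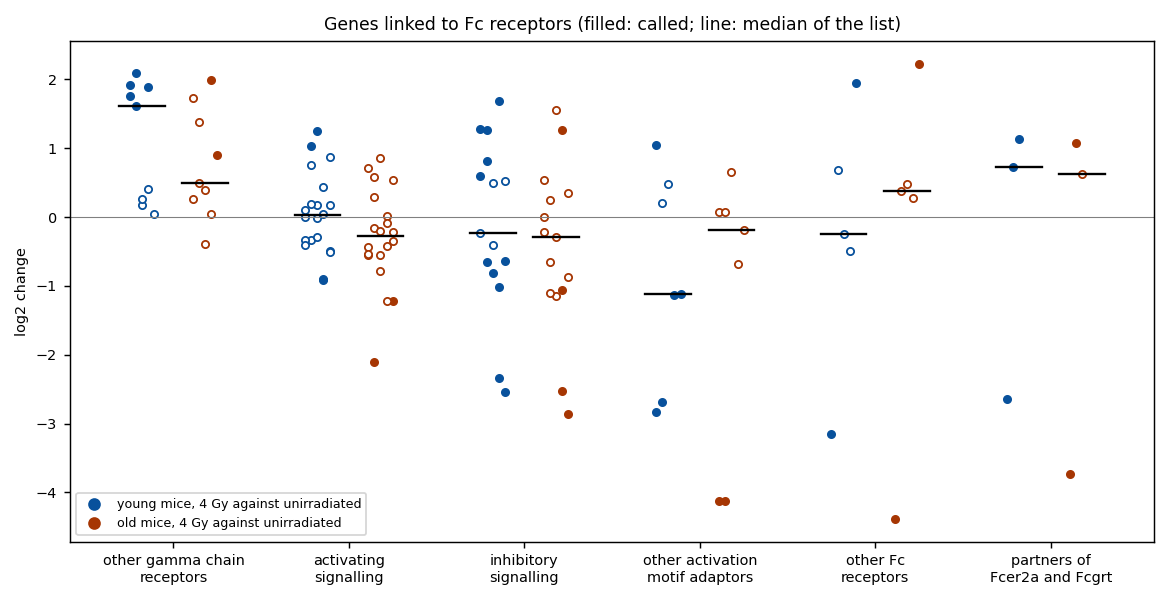
Log2 change after 4 Gy of each tested gene of 6 lists around the Fc receptors, in young and in old mice, with filled points for DEGs and a line at the median of each list. Receptors that share the gamma chain have medians of 1.61 in young and 0.49 in old mice, and the activating signalling genes 0.03 and -0.28.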

How the data were processed

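Per the labels and the methods, blood RNA of 24 mice was labelled with Cy3 and hybridised to Agilent arrays, 1 mouse each. The authors deposited background-subtracted intensity values written by Feature Extraction 12.0.2, not scaled between arrays, and a table of log2 values that the authors had filtered and normalized, which served as an alternative. Non-uniform spots were set to missing, intensities were log2-transformed, and each array was centred on the median of its 43020 spots other than controls. Probes positive and significant in over 75% of arrays were kept (24121 of 39429), each gene was represented by its brightest probe (18729 genes), and 17462 of these differed 1.5-fold from their own median on 20% of arrays or more.

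Groups were compared with limma 3.58.1 (R 4.3.3, data.table version 1.17.8) on the 12 arrays of a comparison, or on 24 for the interaction. The test was checked on simulated data. The number of arrays limits precision. Lists are described by counts and medians, with no set test. Members and lists were chosen with earlier results of these data known. All 10 members, any gene of the 6 pathway lists and the first 3 tested genes of each marker list could be named. Alternatives were 5 other scalings (the 75th percentile, quantile normalization, probes well above background on all arrays, the authors' values, and each array's own spots well above background, chosen later), normexp background correction (offset 50), other filters, mean of probes, other tests and fits, blocks, and leaving out arrays. Figures used Matplotlib 3.10.9. Promoters are from RefSeq; proteins were not analysed here. Per the methods each array is a separate mouse; some pairs of a group were nearly as alike as repeats, and averaging them was an alternative. Replicate numbers do not pair the mice.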

Additional observations from a re-analysis of the deposited data

Results flagged for a closer look

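Among the 52 sets of 6 values that were checked for a single far value, *Fcrla* in young irradiated replicate 4 stood out. It had a level of 3.61, with a gap to the next mouse of 0.662 of the range of the group, past the critical value of Dixon's test for 6 values. Chance puts about 1 in 20 such sets past the limit.

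The log2 response of *Fcgr1* to 4 Gy was 1.12 in young mice, a DEG, and -1.85 in old mice, not a DEG, and -0.77 in old mice without irradiated replicates 4 and 6 (adjusted p = 0.0588). Its difference between old and young mice was 1.16 without irradiation and -1.81 with it. The test of the difference itself, the interaction, gave an adjusted p of 0.106 in limma. The difference of *Fcer2a* between old and young mice was 0.71 without irradiation and -0.48 with it (adjusted p = 0.118 for the interaction). Neither difference was a DEG. Without irradiation it lay 0.09 above the median of all genes, and it was -0.0072 with the authors' values.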

How the results depend on the processing

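Of the log2 changes of single members, 1472 kept their direction and their side of the thresholds under the alternatives, 52 lost and 41 gained a call, and 55 turned sign, none of which was a DEG as reported. The cause of these moves was not tested. The B cell members were downregulated in both ages whichever single array was left out. The signal over background limits what can be seen of *Fcrl1* and *Fcer1a* in irradiated mice of both ages, of *Fcer1a* in young unirradiated mice, and of *Fcer2a*, *Fcrla*, *Fcgr1* and *Fcgrt* in old irradiated mice.

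In unirradiated mice, old against young, the members called numbered 3 at the 75th percentile, 3 with quantile normalization, 2 when scaled to probes well above background, 2 with the authors' values, 2 when scaled to each array's own spots above background, 0 with normexp and 3 in 1 fit of all arrays. Counts over all genes, 11773 to 17576 by setting, moved as well. In the same order, 1563, 2409, 1101, 761, 368, 0 and 4663 genes were higher in old mice. Those lower were 4033, 3257, 4227, 3646, 4403, 0 and 1397. In old mice after irradiation the members called numbered 1 with normexp, 8 in 1 fit, 2 with the slide as a fixed block and 8 without old irradiated replicates 2, 3 and 5. In the same order, 4, 1747, 355 and 2794 of all genes were upregulated and 4, 4534, 145 and 4273 downregulated. In young mice 4 members were called with the slide as a fixed block, where 817 genes were upregulated and 994 downregulated. Between irradiated ages there were 2 members in 1 fit, 4 without old irradiated replicates 2, 3 and 5, 2 without replicates 4 and 6 and 1 with the slide as a random block. In the same order, 2045, 1315, 3542 and 1027 of all genes were higher in old mice and 478, 539, 1436 and 314 lower. In the interaction there were 7 members without replicates 2, 3 and 5 and 1 without replicates 4 and 6. Over all genes, 2689 and 8 then had a higher response in old mice and 3272 and 18 a lower one. Leaving out 1 array at a time gave 7 to 7 members in young mice, 3 to 6 in old mice, 7 to 10 between unirradiated ages, 0 to 0 between irradiated ages and 0 to 2 in the interaction, with 10 without old unirradiated replicate 4, 6 without old irradiated replicate 3 and 2 (*Fcgr1* and *Fcer2a*) without old irradiated replicate 3. For these last 3 counts, 8612, 1381 and 257 of all genes were higher and 2814, 3185 and 778 lower. With the replicate number as a block, 7, 3, 8, 0 and 0 members were called in young mice, old mice, unirradiated ages, irradiated ages and the interaction. Over all genes, 2305, 1118, 7568, 2 and 0 were higher and 2729, 2294, 2590, 0 and 0 lower. *Fcer1g* in old mice was lost and *Fcer2a* between unirradiated ages gained. The deviations of mice with the same number correlated at -0.598 to 0.583, so the numbers were not taken to pair the mice.

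The mean of the myeloid members in old unirradiated mice was 0.852, 0.849, 0.781, 0.809 and 0.769 and that of the B cell members 0.0656, 0.00188, 0.0364 and 0.0265 under the 75th percentile, quantile normalization, probes well above background and the authors' values, with the last myeloid value from each array's own spots. The own-spot scale also gave 0.193 for the B cell mean of young unirradiated mice, and -0.122 and 5.02 for the myeloid minus B cell mean of young unirradiated and young irradiated mice.

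Signs turned as follows. Old minus young in unirradiated mice was -0.014, -0.065, -0.037, -0.12 and -0.14 for *Fcrl1* with quantile normalization, probes well above background, normexp, the authors' values and own spots. It was -0.048, -0.12 and -0.036 for *Fcrla* with quantile normalization, the authors' values and own spots, and -0.0072 for *Fcer2a* with the authors' values. Old minus young in irradiated mice was -0.14, -0.28, -0.18, -0.18, -0.29 and -0.16 for *Fcgr4* at the 75th percentile, with quantile normalization, probes well above background, normexp, the authors' values and own spots. For *Fcrl1* it was -0.049, -0.044 and -0.024 with quantile normalization, probes well above background and own spots, and for *Fcgr3* -0.0053 and -0.013 with quantile normalization and the authors' values. The interaction was 0.017, 0.040 and 0.14 for *Fcer1g* at the 75th percentile, with probes well above background and with own spots, and 0.021, 0.26, 1.27 and 0.12 for *Fcrl1* with probes well above background, normexp, the authors' values and own spots. The response of *Fcgr2b* in young mice was 0.12 with normexp.

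Without old irradiated replicates 2, 3 and 5, the old response was -0.64 for *Fcgr3* and -0.39 for *Fcgr4*, the irradiated age difference -0.43, -0.53, -0.67 and -0.55 for *Fcer1a*, *Fcgr3*, *Fcgr4* and *Fcrl1*, and the interaction 0.058 for *Fcer1g*. Without replicates 4 and 6, chosen after seeing the data, the irradiated age difference was 0.82, 0.40 and 0.085 for *Fcgr2b*, *Fcgrt* and *Fcrla*, and the interaction of *Fcrl1* 0.46. Without young irradiated replicates 2, 4 and 5, also chosen later, *Fcgrt* responded by -0.33 in young mice, and the irradiated age difference was -0.26, 0.083 and -0.16 for *Fcgr4*, *Fcgrt* and *Fcrl1*. With alike arrays averaged, chosen later, it was 0.17 for *Fcgr2b*, and the interaction of *Fcrl1* 0.0059. Leaving out 1 array at a time, the old response of *Fcgr3* ran from -0.12 to 0.69. The irradiated age difference ran from -0.012 to 0.80 for *Fcgr3*, -0.16 to 0.44 for *Fcgr4*, -0.75 to 0.11 for *Fcgr2b* and -0.041 to 0.58 for *Fcrl1*, and the interaction of *Fcrl1* from -0.56 to 0.054.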
